A study of Mus musculus with 6 samples.

Results

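The genes described here are stress regulators, enzymes of serine, one-carbon and amino acid synthesis, and cytosolic tRNA synthetases. Many of them, but not all, are known as targets of the transcription factor ATF4, and Atf4 itself is among the stress regulators. Of 37 genes listed by symbol, 34 had a probe set annotated to exactly 1 gene, out of 12393 genes tested: 8 of 8 stress regulators, 8 of 9 serine, one-carbon and amino acid genes, and 18 of 20 synthetases. Pycr1, Dars and Mars were not analysed here. The members were listed by symbol and not by a cut-off on a measured value. Earlier results of these data were known when they were listed.

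RNA came from the livers of 6 mice at postnatal day 9, with 1 Affymetrix array per animal. The labels give 3 animals as wild type. The 3 transgenic animals carried a conditional Tcfeb overexpression allele together with Alb-Cre, a Cre recombinase driven by the albumin promoter and therefore active in hepatocytes and in cells derived from albumin-expressing precursors. Tcfeb, now Tfeb, encodes TFEB, a transcription factor of lysosomal and autophagy genes, and the comparison asks how its overexpression in liver changed gene expression. Values are log2 expression as deposited, on which a difference of 1 is a 2-fold change. A difference is the transgenic mean less the wild-type mean, given with its standard error (SE) and limma's Benjamini-Hochberg adjusted p over all genes tested. A gene rose or fell where its adjusted p was under 0.05. The titles call the arrays biological replicates, and p-values measure the spread between these animals.

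ATF4 is made when kinases phosphorylate the translation factor eIF2alpha, which lowers general protein synthesis but lets the ATF4 message be translated. The factor then raises genes for amino acid synthesis, amino acid uptake and tRNA charging, together with regulators such as Ddit3 and Trib3 that act back on the response. In liver this programme is known from amino acid shortage, from stress of the endoplasmic reticulum and from mitochondrial stress.

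Array medians, leaving out control probe sets, ranged from 6.74 to 6.76 in wild-type and from 6.78 to 6.79 in transgenic liver. Albumin was at 14.87 in both groups, and the summed level of 8 hepatocyte markers was 17.11 to 17.13 in wild-type and 17.02 to 17.04 in transgenic liver, on the log2 scale. The brightest markers weigh most in this sum, and 4 of the 8 fell, as given below. The only Tfeb probe set read 6.91, 6.63 and 6.58 in wild-type and 6.52, 6.61 and 6.36 in transgenic liver (difference -0.21, SE 0.11, adjusted p = 0.168). The labels do not describe the construct, so this reading does not check them. Transgenic replicate 1 showed the Xist and Eif2s3y levels of a male and the other 5 arrays those of females. Without it, 22 of the 23 member calls described below were kept, and the 1 lost was Farsa (0.26, adjusted p = 0.0581). The 14 probe sets of the bacterial hybridisation controls did not overlap between groups and were lower in transgenic liver, by a median of -0.37. Scaling the arrays to these controls moved the median difference of all genes from -0.04 to 0.33, and 91.5% of calls were then higher, against 49.4% on the deposited scale. This scaling moves the difference of every gene by the same amount, so it is not a separate check of single genes. Directions below are those of the deposited scale, and members whose sign turned or whose call was gained or lost under that scaling are given with that value.

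The start regions of the members are shown because many of the members are described as targets of a DNA-binding factor. Promoters of 300 bases, 250 before to 50 after the start, were taken from RefSeq (GRCm38.p6), where 27 of the 34 measured members had an entry. They were searched on both strands for TGATGNAA, the core bound by ATF4 with C/EBP partners, and for CACGTG, the E-box core bound by TFEB. No match of 1 motif overlapped a match of the other in a member. Nupr1, Psat1 and Gars are printed as the members with the largest change in their groups. Trib3, Asns and Tars were added after their matches were seen, as 1 member that rose, 1 that did not pass and 1 that fell. Each sequence runs 5′ to 3′ on the strand of its gene, and capitals mark the matches.
Nupr1: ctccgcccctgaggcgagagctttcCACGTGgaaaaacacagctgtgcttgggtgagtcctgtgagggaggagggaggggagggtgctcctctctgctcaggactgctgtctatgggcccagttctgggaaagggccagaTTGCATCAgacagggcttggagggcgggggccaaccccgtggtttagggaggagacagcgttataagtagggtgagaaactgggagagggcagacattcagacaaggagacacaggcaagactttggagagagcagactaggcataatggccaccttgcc
Psat1: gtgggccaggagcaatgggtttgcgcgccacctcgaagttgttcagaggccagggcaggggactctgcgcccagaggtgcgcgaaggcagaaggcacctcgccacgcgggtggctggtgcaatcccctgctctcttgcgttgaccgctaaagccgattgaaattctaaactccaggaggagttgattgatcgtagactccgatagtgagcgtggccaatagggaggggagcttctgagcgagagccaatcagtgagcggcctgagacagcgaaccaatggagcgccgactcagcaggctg
Gars: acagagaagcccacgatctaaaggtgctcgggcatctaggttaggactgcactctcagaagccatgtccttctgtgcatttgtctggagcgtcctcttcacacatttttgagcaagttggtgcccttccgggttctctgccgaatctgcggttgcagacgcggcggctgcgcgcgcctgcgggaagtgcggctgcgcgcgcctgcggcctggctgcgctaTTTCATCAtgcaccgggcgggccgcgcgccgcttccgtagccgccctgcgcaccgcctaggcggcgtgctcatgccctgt
Trib3: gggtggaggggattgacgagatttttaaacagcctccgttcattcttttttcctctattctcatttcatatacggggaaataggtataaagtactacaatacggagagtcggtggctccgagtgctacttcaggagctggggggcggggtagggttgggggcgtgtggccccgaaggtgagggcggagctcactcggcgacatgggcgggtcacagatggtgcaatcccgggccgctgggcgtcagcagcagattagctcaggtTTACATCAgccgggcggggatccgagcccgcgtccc
Asns: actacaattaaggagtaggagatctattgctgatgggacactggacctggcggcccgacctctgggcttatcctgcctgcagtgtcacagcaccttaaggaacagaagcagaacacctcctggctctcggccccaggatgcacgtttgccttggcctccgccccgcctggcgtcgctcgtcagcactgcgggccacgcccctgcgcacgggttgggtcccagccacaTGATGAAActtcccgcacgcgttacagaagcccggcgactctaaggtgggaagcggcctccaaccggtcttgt
Tars: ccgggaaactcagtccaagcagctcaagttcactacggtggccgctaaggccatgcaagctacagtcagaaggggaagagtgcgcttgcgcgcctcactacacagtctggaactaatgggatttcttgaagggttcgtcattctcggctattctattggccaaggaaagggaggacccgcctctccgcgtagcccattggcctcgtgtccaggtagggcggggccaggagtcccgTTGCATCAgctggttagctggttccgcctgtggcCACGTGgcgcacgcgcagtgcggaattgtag

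The Nupr1 promoter lies at chr7:126625421-126625720 on the minus strand and holds TGATGNAA on the other strand from 110 bases before the start, and CACGTG from 225 bases before it. The Gars promoter at chr6:55037751-55038050 on the plus strand has its match 30 bases before the start. In the Trib3 promoter, chr2:152344011-152344310 on the minus strand, the match is 15 bases after the start. The Asns promoter, chr6:7693160-7693459 on the minus strand, has it 23 bases before the start, and the Tars promoter, chr15:11399609-11399908 on the minus strand, 15 bases before, with CACGTG 20 bases after. Psat1, whose first listed promoter lies at chr19:15925010-15925309 on the minus strand, had neither in that window or in its other listed promoter.

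TGATGNAA was found in 9 of the 27 members (33.3%), against 4.51% of all 27025 genes with a promoter of this length and 3.13% of the tested genes. The other members with a match were Chac1, Yars, Aars and Iars. It was present in 3 of 8 stress regulators, 1 of 8 serine, one-carbon and amino acid genes and 5 of 11 synthetases. Among members with an entry, 5 of 12 that rose, 1 of 5 that fell and 3 of 10 that did not pass held it, so a match was found in each direction. CACGTG was found in 5 members (18.5%), against 8.09% of all genes and 10.8% of those tested: Nupr1, Aars, Iars, Tars and Farsb. A match is a description of letters in a window and not a binding site, and members were listed with their known regulation in view.

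Of the 34 members, 17 rose, 6 fell and 11 did not pass. Over all genes tested, 4990 of 12393 passed (40.3%), with 2467 higher (19.9%) and 2523 lower (20.4%). The corresponding shares of the members were 67.6%, 50% and 17.6%. The values of the 2 groups did not overlap for 25 members, 17 with the transgenic arrays above and 8 with them below, where 53.7% of all genes had no overlap. Nupr1, Trib3, Psat1 and Gars, 4 members, rose at least 2-fold, a size that 2.53% of all genes reached in that direction, and no member fell by as much. The median difference over the members was 0.21, against -0.04 over all genes, whose middle range from the first to the third quartile was -0.23 to 0.19.

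The 3 groups of members differed in their counts. Stress regulators had 4 that rose and 1 that fell, with a median difference of 0.36. Serine, one-carbon and amino acid genes had 3 in each direction, with a median of 0.08, which was 0.04 without transgenic replicate 1 and 0.14 without transgenic replicate 3. The synthetases had 10 that rose and 2 that fell, with a median of 0.30. Differences between the groups of genes were not tested.

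**Figure D1:**
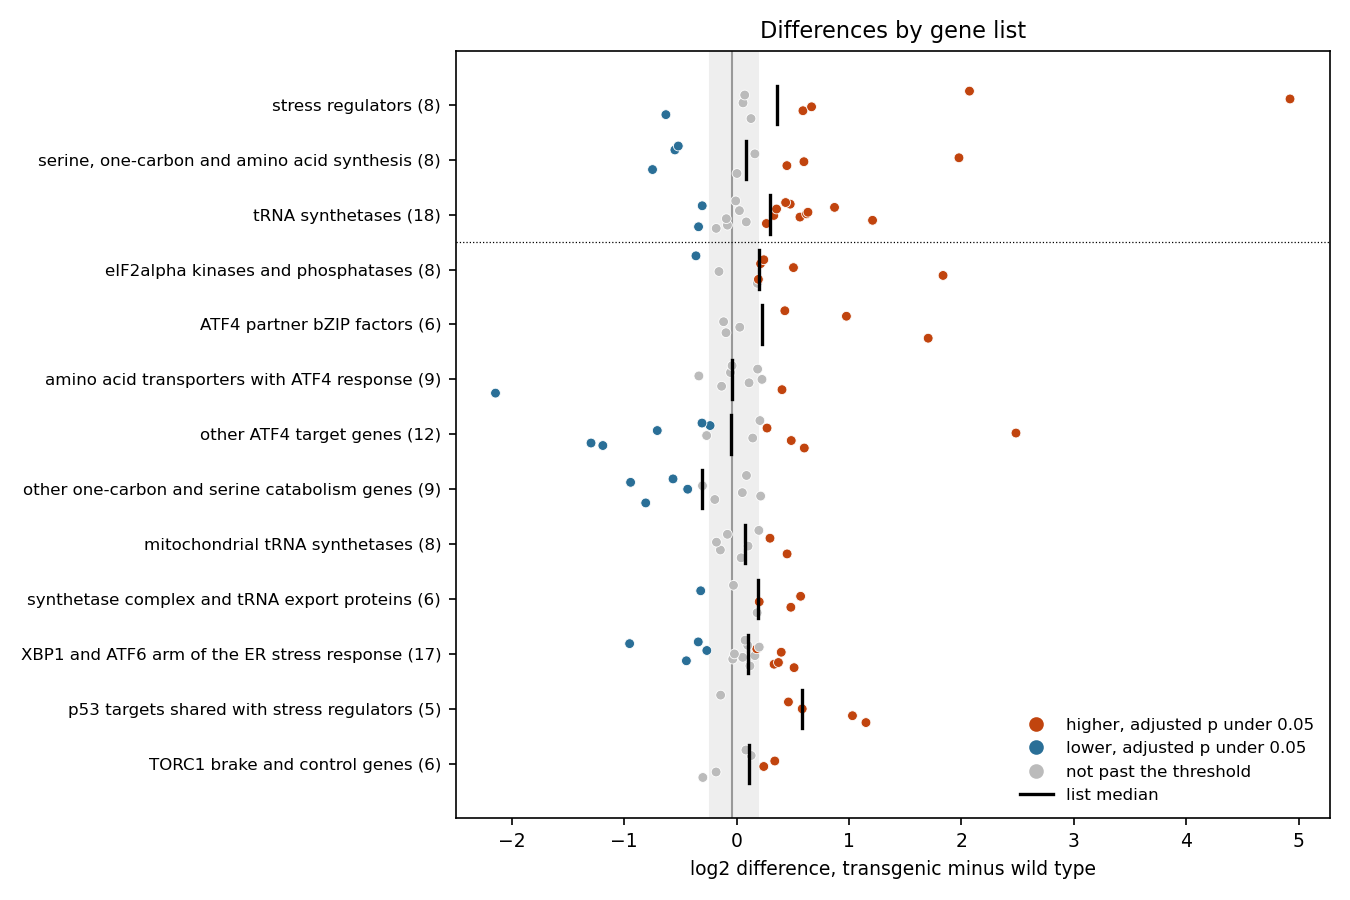
Log2 difference, transgenic minus wild type, of each measured member and of the related gene lists, with 1 point per gene coloured by its call, a black bar at each list's median and the number of genes measured in brackets. The grey line and band are the median and the middle range of all 12393 genes (-0.23 to 0.19). The points of the stress regulators reach 4.92, and those of the synthetases lie between -0.34 and 1.21.

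Of the 3 transcription factors among the stress regulators, 1 rose, 1 fell and Atf4 itself did not pass. Atf4, the factor that names the response and whose output is set largely at translation, read 10.62, 10.69 and 10.77 in wild-type and 10.72, 10.92 and 10.82 in transgenic liver (difference 0.13, SE 0.08, adjusted p = 0.228). The groups overlapped, and none of its 3 probe sets passed. With scaling to the hybridisation controls its difference was 0.50 and passed (adjusted p = 0.00119). Atf5, a related factor that is abundant in liver and controls mitochondrial stress genes, was at 11.88, 11.93 and 11.97 in wild-type and 11.29, 11.27 and 11.33 in transgenic liver. It fell by 0.63 on the log2 scale (SE 0.06, adjusted p = 0.000256), with all transgenic values under the lowest wild-type value. Ddit3, which encodes CHOP, a C/EBP family factor of prolonged stress, read 7.73, 7.61 and 7.54 in wild-type and 8.07, 8.49 and 8.33 in transgenic liver. It rose by 0.67 (SE 0.11, adjusted p = 0.00292) without overlap.

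The largest changes belonged to effectors of the response. Nupr1, a small chromatin-binding stress protein, read 7.18, 7.39 and 7.09 in wild-type and 11.99, 12.10 and 12.34 in transgenic liver. It rose by 4.92 (SE 0.12, adjusted p = 1.49e-06), or 30.4-fold, and a second probe set rose by 4.85. Trib3, a pseudokinase that binds ATF4 and AKT, read 5.97, 6.35 and 6.34 in wild-type and 7.995, 8.37 and 8.51 in transgenic liver. It rose by 2.07 (SE 0.15, adjusted p = 6.02e-05), or 4.21-fold, and its other probe set by 1.35. For both genes the lowest transgenic array lay well above the highest wild-type array.

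Of the remaining 3 regulators, 1 rose and 2 did not pass. Chac1, an enzyme that breaks down glutathione, read 4.74, 4.88 and 4.55 in wild-type and 5.65, 5.26 and 5.03 in transgenic liver, levels near the bottom of the scale. It rose by 0.59 (SE 0.16, adjusted p = 0.0218), but leaving out wild-type replicate 3 ended the call (0.50, adjusted p = 0.0666), as did leaving out transgenic replicate 2 (0.62, adjusted p = 0.0503). Ddit4 and Sesn2 encode brakes on the growth kinase TORC1, Sesn2 as a sensor of leucine. Ddit4 read 7.77, 8.72 and 8.30 in wild-type and 8.51, 8.28 and 8.18 in transgenic liver (difference 0.06, SE 0.22, adjusted p = 0.851), and was -0.19 without wild-type replicate 1, its lowest array. Sesn2 read 7.38, 7.36 and 7.50 against 7.51, 7.53 and 7.43 (difference 0.07, SE 0.07, adjusted p = 0.440). Both genes overlapped between groups. Sesn2 passed at 0.44 (adjusted p = 0.00358) when scaled to the hybridisation controls.

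**Figure D2:**
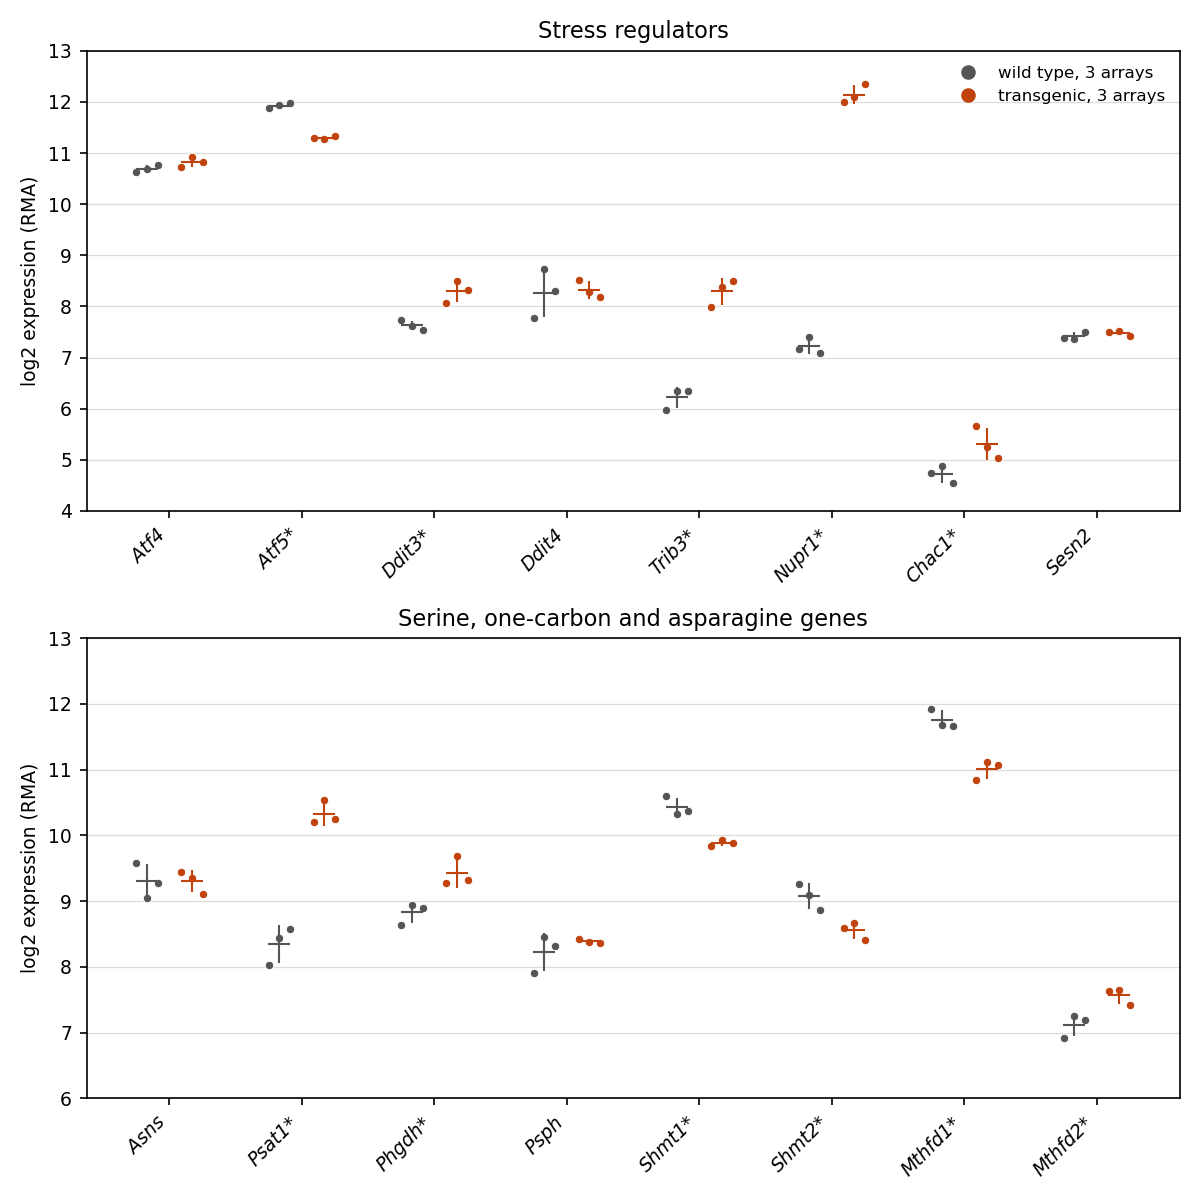
Log2 expression of the stress regulators and of the serine, one-carbon and amino acid genes on each of the 3 wild-type and 3 transgenic arrays, with a dash at the group mean, a bar for the SD and an asterisk on genes past the threshold. Nupr1, Trib3 and Psat1 show the widest gaps between groups, while Atf4, Ddit4, Sesn2, Asns and Psph overlap.

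The serine, one-carbon and amino acid genes are described by position in the pathway, a grouping made after the values were seen and not tested. Of the 3 enzymes that make serine from a glycolytic intermediate, 2 rose. Phgdh, the entry enzyme, read 8.64, 8.95 and 8.89 in wild-type and 9.28, 9.68 and 9.33 in transgenic liver. It rose by 0.60 (SE 0.13, adjusted p = 0.00853), and all 4 of its probe sets rose, by 0.44 to 1.70, each with the suffix that marks possible cross-hybridisation. Psat1, the aminotransferase of the next step, read 8.03, 8.44 and 8.58 in wild-type and 10.20, 10.54 and 10.25 in transgenic liver. It rose by 1.98 (SE 0.15, adjusted p = 7.28e-05), or 3.94-fold, and its other probe set by 1.65. Psph, the phosphatase of the last step, read 7.90, 8.46 and 8.32 against 8.43, 8.39 and 8.36 (difference 0.16, SE 0.14, adjusted p = 0.366). Its transgenic values lay within the wild-type range, so the last step did not pass where the first and the second rose. Psph passed at 0.53 (adjusted p = 0.00696) when scaled to the hybridisation controls.

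The enzymes that use serine to load folate with carbon units moved both ways. Shmt1, the cytosolic hydroxymethyltransferase that turns serine into glycine, read 10.60, 10.32 and 10.37 in wild-type and 9.84, 9.93 and 9.88 in transgenic liver. It fell by 0.55 (SE 0.09, adjusted p = 0.00218), and all 4 of its probe sets fell, by 0.44 to 0.93. Mthfd1, the trifunctional cytosolic folate enzyme, read 11.93, 11.68 and 11.67 against 10.84, 11.12 and 11.07, and fell by 0.75 (SE 0.11, adjusted p = 0.00125). Of its 3 probe sets 2 fell, and the dimmest did not pass (-0.28, adjusted p = 0.0668). For both cytosolic genes all transgenic values lay under the lowest wild-type value. In mitochondria, Shmt2, the sister enzyme of Shmt1, read 9.26, 9.10 and 8.87 against 8.60, 8.67 and 8.41, and fell by 0.52 (SE 0.12, adjusted p = 0.0100) on 3 of its 4 probe sets. Mthfd2, a mitochondrial folate dehydrogenase that is low in most adult tissue, read 6.92, 7.25 and 7.19 in wild-type and 7.63, 7.65 and 7.42 in transgenic liver. It rose by 0.45 (SE 0.11, adjusted p = 0.0131), and by 1.15 on its other probe set. The lower calls of Shmt1 and Shmt2 were lost with scaling to the hybridisation controls (-0.18, adjusted p = 0.179, and -0.15, adjusted p = 0.375), whereas Mthfd1 kept its call.

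Asns, the asparagine synthetase and a long-known ATF4 target, did not pass. It read 9.58, 9.04 and 9.28 in wild-type and 9.44, 9.36 and 9.11 in transgenic liver, with a difference of 0.00 (SE 0.15, adjusted p = 0.984). All 3 transgenic values lay within the wild-type range.

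The synthetases, which charge each tRNA with its amino acid, changed by less than the leading regulators, but their arrays were close together. The median SD within a group was 0.04 in wild-type and 0.08 in transgenic liver, against 0.10 and 0.09 over all genes. Gars, the glycyl-tRNA synthetase, read 9.12, 9.14 and 9.15 in wild-type and 10.32, 10.49 and 10.24 in transgenic liver, a rise of 1.21 (SE 0.08, adjusted p = 3.8e-05), or 2.31-fold. Sars, for serine, read 8.41, 8.31 and 8.32 against 9.17, 9.34 and 9.15, and rose by 0.87 (SE 0.08, adjusted p = 0.000125). These were the largest differences among the synthetases. Glycine and serine are the 2 amino acids that Shmt1 and Shmt2 interconvert, but both of those genes fell, and a link was not tested. Nars, for asparagine, read 10.75, 10.77 and 10.77 against 11.35, 11.47 and 11.38, and rose by 0.64 (SE 0.07, adjusted p = 0.000267). Lars, for leucine, read 8.97, 8.92 and 8.95 against 9.54, 9.67 and 9.51, and rose by 0.62 (SE 0.07, adjusted p = 0.000396). Iars, for isoleucine, read 9.35, 9.32 and 9.29 against 9.82, 10.03 and 9.81, and rose by 0.56 (SE 0.08, adjusted p = 0.00124). In each of these 5 genes every transgenic array lay above every wild-type array.

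A further 5 synthetases rose by 0.27 to 0.48, again without overlap. Vars, for valine, was at 7.34, 7.21 and 7.34 in wild-type and 7.84, 7.79 and 7.69 in transgenic liver (difference 0.48, adjusted p = 0.00193). Rars, for arginine, was at 9.25, 9.24 and 9.31 against 9.63, 9.66 and 9.59 (difference 0.36, adjusted p = 0.00353). Kars, for lysine, was at 9.03, 9.04 and 8.92 against 9.38, 9.36 and 9.25 (difference 0.33, adjusted p = 0.00873). The other 2 of these rises were less secure. Wars, for tryptophan, read 7.68 on each wild-type array and 7.98, 8.26 and 8.10 in transgenic liver (difference 0.44, adjusted p = 0.00505), but it was called on only 1 of its 4 probe sets, and the call was lost without the probe sets that may cross-hybridise (0.18, adjusted p = 0.0682). Farsa, the alpha subunit of the phenylalanyl enzyme, read 7.64, 7.57 and 7.51 against 7.85, 7.90 and 7.76 (difference 0.27, adjusted p = 0.0218). Its call was lost with quantile normalization again (0.19), with cyclic loess (0.21), and without wild-type replicate 2 (0.26) or 3 (0.23) or transgenic replicate 1 (0.26) or 2 (0.23), with adjusted p of 0.0581 to 0.0790 over these 6 settings.

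The synthetases that fell were those for threonine and cysteine. Tars read 10.13, 10.19 and 10.13 in wild-type and 9.91, 9.87 and 9.75 in transgenic liver, and fell by 0.31 (SE 0.07, adjusted p = 0.0110). Cars read 7.54, 7.64 and 7.73 against 7.32, 7.36 and 7.22, and fell by 0.34 (SE 0.08, adjusted p = 0.0114) on both of its probe sets. With scaling to the hybridisation controls both turned to small positive values that did not pass, 0.07 for Tars and 0.03 for Cars. Aars, for alanine, read 10.09, 10.09 and 10.13 against 9.90, 10.03 and 9.85 (difference -0.18, SE 0.07, adjusted p = 0.0760). The groups of Aars did not overlap either, although its difference did not pass. It was called lower under 5 alternatives, among them cyclic loess (-0.27, adjusted p = 0.0190) and median centring (-0.22, adjusted p = 0.0381), and turned to 0.19 with scaling to the hybridisation controls (adjusted p = 0.123).

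The other 5 synthetases had differences of -0.09 to 0.09. Eprs, the joint glutamyl-prolyl enzyme, read 10.04, 10.13 and 9.99 against 9.96, 9.98 and 9.97 (-0.08, adjusted p = 0.356), with the transgenic arrays just below. Hars, for histidine, differed by -0.09 (adjusted p = 0.316), Yars, for tyrosine, by -0.01 (adjusted p = 0.936) and Farsb, the beta subunit of the phenylalanyl enzyme, by 0.09 (adjusted p = 0.387). Qars, for glutamine, differed by 0.03 (adjusted p = 0.822) on its brightest probe set, whereas 2 of its 4 probe sets rose, by 0.36 and 0.34. The brightest probe set and the one at 0.34 are marked for possible cross-hybridisation. The one at 0.36 is not (adjusted p = 0.00743 over all probe sets). With scaling to the hybridisation controls Eprs, Hars and Yars turned to 0.29, 0.28 and 0.36, and these passed, as did Farsb (0.46) and Qars (0.40).

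**Figure D3:**
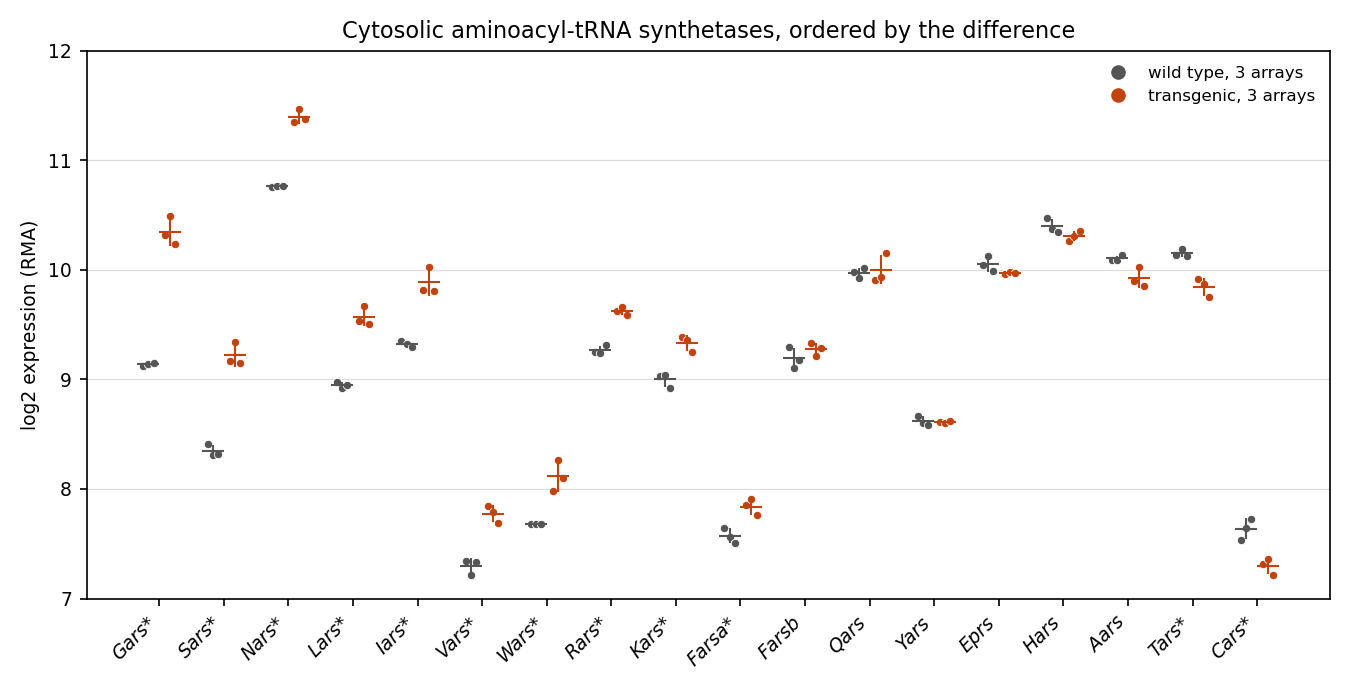
Log2 expression of the 18 measured cytosolic tRNA synthetases on each array, ordered by difference, with a dash at the group mean, a bar for the SD and an asterisk on genes past the threshold. The left of the plot, from Gars to Farsa, has the transgenic arrays above the wild-type arrays, and Tars and Cars have them below on the deposited scale, which turned to 0.07 and 0.03 with scaling to the hybridisation controls.

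Several synthetases sit together in the multisynthetase complex of animal cells. Of its 8 listed synthetases 6 were measured, of which 4 (Lars, Iars, Rars and Kars) rose and none fell, with a median of 0.34. Of the 12 outside it 6 rose and 2 fell, with a median of 0.18. Of the complex's scaffold proteins, Eef1e1 rose by 0.57 (SE 0.07, adjusted p = 0.000542) and Aimp2 by 0.48 (SE 0.08, adjusted p = 0.00212). Aimp1, the other scaffold protein, differed by 0.18 (SE 0.07, adjusted p = 0.0667) and did not pass. Over the list of 6 scaffold, tRNA export and tRNA proofreading genes, 3 rose and 1 fell, the remaining gene that rose being Dtd1. With any single array left out 2 rose, as Dtd1 lost its call. The gene that fell, Sepsecs, which makes selenocysteine on its tRNA, differed by -0.32 (SE 0.07, adjusted p = 0.0111), and by 0.05 with scaling to the hybridisation controls. Of 8 mitochondrial synthetases, encoded by separate genes, 2 rose (25%, against 19.9% of all genes) and none fell. Those that rose were Fars2, by 0.45 (SE 0.10, adjusted p = 0.0113), and Rars2, by 0.30 (SE 0.07, adjusted p = 0.0112). Scaled to the hybridisation controls, 5 of the 6 and 6 of the 8 genes of these lists rose and none fell.

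Of the 34 members, 21 had over 1 probe set, and none of these had probe sets called in both directions. For 10 of them every probe set was called the same way. In size the probe sets differed more, as for Mthfd2 (0.45 and 1.15) and Phgdh (0.44 to 1.70).

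**Figure D4:**
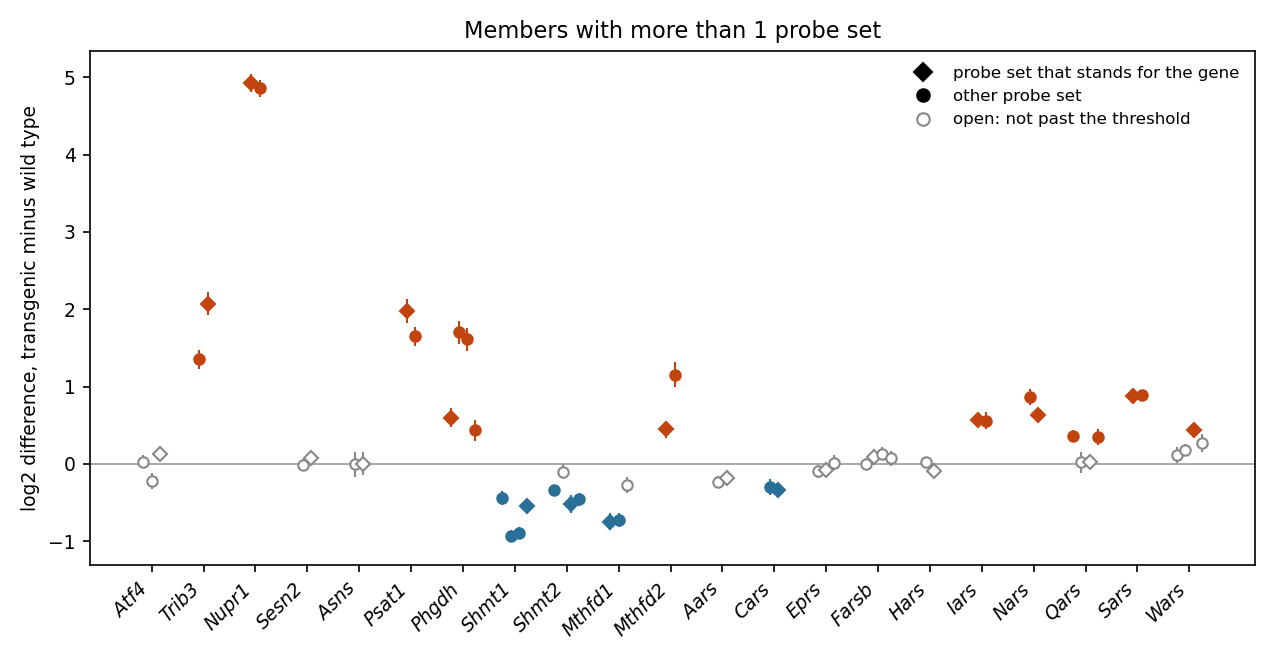
Log2 difference with its SE for every probe set of the members that have over 1, with a diamond on the probe set that represents the gene and open symbols where the adjusted p did not pass. Probe sets of Nupr1, Trib3, Psat1 and Shmt1 keep 1 direction, while those of Qars and Wars divide into called and not called.

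Individual arrays also ranked unevenly over the members. The same ranks were not counted over all genes, so whether they are particular to the members is unknown. Transgenic replicate 2 gave the highest of the 3 transgenic values for 20 of the 34 members, among them 11 of 18 synthetases and 6 of 8 serine, one-carbon and amino acid genes, and transgenic replicate 3 gave the lowest for 18. In wild-type liver replicate 1 was highest for 13 members and lowest for 13. With any 1 array left out, 21 to 23 of the 23 calls were kept, the losses being Chac1 and Farsa.

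Markers of other liver cells moved with the genotype as well. In bulk liver, fewer cells of a type and less RNA per cell cannot be told apart. Cholangiocyte markers rose for 5 of 6, with a summed log2 level of 11.32 to 11.37 in wild-type and 12.40 to 12.69 in transgenic liver, and erythroid precursor markers rose for 4 of 6, with 10.30 to 10.44 against 10.95 to 11.21. Granulocyte markers fell for 6 of 8, with 13.47 to 14.62 against 11.70 to 12.80, and lymphoid markers fell for 6 of 6, with 9.20 to 9.84 against 8.07 to 8.43. The values of 53.7% of all single genes had no overlap between groups. The summed ranges of these 4 lists did not overlap either, nor did those of the hepatocyte markers, 17.11 to 17.13 against 17.02 to 17.04. Nor did those of stellate markers, 13.83 to 13.92 against 13.51 to 13.58, or of acinar markers, 9.02 to 9.10 against 8.40 to 8.51. Of 7 stellate markers 3 fell and of 4 acinar markers 2 fell, and none of either list rose. Those of Kupffer cell markers (13.91 to 14.26 against 13.61 to 13.98), endothelial markers (12.15 to 12.39 against 12.18 to 12.38) and proliferation genes (12.74 to 12.97 against 12.96 to 13.09) overlapped. Even so, 3 of 7 Kupffer cell markers fell and none rose, with 1 to 5 that fell when an array was left out. Of 7 endothelial markers 4 fell and 1 rose, and the 4 held with any array left out. A single proliferation gene of 6 rose, with 0 to 3 when an array was left out. Hepatocyte markers fell for 4 of 8, with Alb itself at a difference of 0.00. The differences of those that fell were -1.09 for Hpd, -1.07 for F9, -0.99 for Tat and -0.19 for Apoa1. With any 1 array left out 3 fell. With scaling to the hybridisation controls 4 hepatocyte markers were higher and 3 lower, and 3 of the 6 lymphoid markers fell, while 5 of the 6 cholangiocyte markers rose and 6 of the 8 granulocyte markers fell. Under that scaling 3 stellate markers were higher and 2 lower, and 2 acinar markers were lower. It also gave 3 endothelial and 1 Kupffer cell marker higher and none lower, and 5 erythroid markers and 6 proliferation genes higher. The part of these cells in the members' differences was not tested.

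Messages of genes that act upstream of ATF4, and of its partners, were read from lists of related genes. Phosphorylation of eIF2alpha and the activity of its kinases were not measured. Over all genes 19.9% rose and 20.4% fell. Genes of these lists are given with values where their call held without each array in turn. Eif2ak3, which encodes PERK, the eIF2alpha kinase of the endoplasmic reticulum, read 8.82, 8.87 and 8.80 in wild-type and 10.49, 10.72 and 10.80 in transgenic liver, and rose by 1.84 (SE 0.09, adjusted p = 1.19e-05) on 2 of its 3 probe sets. Over 8 eIF2alpha kinases, phosphatase subunits and related genes 5 rose and 1 fell. The count that rose was 3 without wild-type replicate 1 or 3 or transgenic replicate 1, 2 without wild-type replicate 2, and 1 when either transgenic replicate 2 or 3 was left out. The gene that fell, Ppp1r15b, a phosphatase subunit that reverses the phosphorylation, differed by -0.36 (SE 0.07, adjusted p = 0.00517), and by 0.01 with scaling to the hybridisation controls. Of 6 bZIP factors that can pair with or follow ATF4, 3 rose, among them Atf3 (1.71, SE 0.15, adjusted p = 0.000137) and Nfe2l2, the oxidative stress factor NRF2 (0.43, SE 0.07, adjusted p = 0.00317). When any 1 transgenic array was left out 2 of these factors rose, and without wild-type replicate 1 a single factor fell. With scaling to the hybridisation controls 6 of the 8 and 4 of the 6 genes of these lists rose and none fell.

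Other known ATF4 targets went in both directions. Of 12 such genes 4 rose and 5 fell, with a median of -0.05. Only 2 rose without wild-type replicate 2 or 3 or transgenic replicate 2, and 3 fell without any 1 array other than wild-type replicate 1. The sign of the median also turned with single arrays, to 0.10 without wild-type replicate 2, 0.02 without wild-type replicate 3 and 0.05 when transgenic replicate 2 was left out. When scaled to the hybridisation controls 6 rose and 3 fell, with a median of 0.33. Gpt2, the mitochondrial alanine aminotransferase, read 8.43, 8.77 and 8.74 in wild-type and 11.22, 11.06 and 11.12 in transgenic liver, and rose by 2.49 (SE 0.11, adjusted p = 7.87e-06) on all 3 of its probe sets. Cth and Cbs, the enzymes that make cysteine by transsulfuration, fell by 1.29 (SE 0.17, adjusted p = 0.000879) and by 1.19 (SE 0.10, adjusted p = 0.000113). Of 9 amino acid transporters 1 rose and 1 fell, and the count that rose was 0 without transgenic replicate 1 or 2 and 2 without wild-type replicate 3, while 2 fell without transgenic replicate 3. The hybridisation controls as scale gave 6 that rose and 1 that fell. Slc1a4, a carrier of alanine, serine and cysteine, read 9.19, 9.71 and 9.74 in wild-type and 7.76, 7.27 and 7.17 in transgenic liver, and fell by 2.14 (SE 0.19, adjusted p = 0.000147) on all 3 of its probe sets.

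Beyond the members, 9 further genes of one-carbon metabolism and serine breakdown held 4 that fell and none that rose, with a median of -0.30. Without transgenic replicate 1 a single gene rose, and with scaling to the hybridisation controls 3 rose and 2 fell, with a median of 0.07. Gnmt, the glycine methyltransferase abundant in hepatocytes, fell by 0.94 (SE 0.20, adjusted p = 0.00780) and Aldh1l1, which releases carbon units from folate, by 0.81 (SE 0.08, adjusted p = 0.000167). Mat1a, the S-adenosylmethionine synthetase of liver, and Gcsh, of the glycine cleavage system, differed by -0.56 and -0.43 (adjusted p = 0.00154 and 0.00363), and lost their calls with scaling to the hybridisation controls (-0.19 and -0.06).

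Neighbouring stress pathways were given by 3 more lists. In the XBP1 and ATF6 arm of the endoplasmic reticulum response, 5 of 17 genes rose and 4 fell. These shares were 29.4% and 23.5%, against 19.9% and 20.4% of all genes. With any 1 array left out 3 to 4 rose and 3 to 4 fell, with 3 that rose without wild-type replicate 3 or transgenic replicate 1. Scaled to the hybridisation controls, 13 rose and 1 fell. Atf6, the sensor, rose by 0.51 (SE 0.09, adjusted p = 0.00375) and Sel1l, of the degradation channel, fell by 0.95 (SE 0.09, adjusted p = 0.000147) on all 4 of its probe sets. Edem1, of the same degradation route, fell by 0.45 (SE 0.08, adjusted p = 0.00390), a call lost with scaling to the hybridisation controls (-0.07). Of 5 p53 targets that share stress regulators with ATF4, 4 rose, among them Ccng1 (1.15, SE 0.07, adjusted p = 2.28e-05), Mdm2 (0.58, SE 0.09, adjusted p = 0.00200) and Sesn1 (0.46, SE 0.10, adjusted p = 0.00953). The count that rose was 3 when any 1 transgenic array was left out. Sesn1 is the relative of Sesn2, which did not pass. Of 6 genes of TORC1 control 2 rose, and 1 without wild-type replicate 1 or 2 or transgenic replicate 1 or 2, against 4 when scaled to the hybridisation controls. Rheb, the activating GTPase of TORC1, rose by 0.34 (SE 0.07, adjusted p = 0.00776).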

How the data were processed

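Total RNA from 3 wild-type and 3 transgenic livers was extracted with Trizol and an RNeasy kit and hybridised as biotin-labelled cRNA, per the labels' protocols. Per the submitters' processing notes, the authors turned the arrays into log2 expression per probe set with affy and RMA, and no version is given. RMA forces the arrays to nearly 1 distribution, which hides any change in RNA content per cell. The deposited log2 table holds 22690 probe sets without detection calls. Signal over background is therefore unknown, and the number of arrays limits the precision.

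Gene names came from the platform annotation, and 20351 of the 20380 probe sets with 1 gene matched a RefSeq table (GRCm38.p6) by Entrez identifier, with 0 symbols changed. The probe set with the highest mean over the 6 arrays stood for its gene, which left 12393 genes. The main test was limma 3.58.1 under R 4.3.3, fitting group alone with lmFit and eBayes, two-sided. Adjusted p-values (Benjamini-Hochberg) cover all 12393 genes and were called under 0.05. A summed marker level is log2 of the sum of linear values. Plots used matplotlib 3.10.9 and tables pandas 2.3.3, in Python 3.11.15. The fit was tested on simulated data.

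The members, lists, motifs and alternatives were chosen with earlier results of these data known. Every measured member could be named. From each other list the rule took the genes past the threshold with the largest changes, at most 4 and first at most 2 per direction. Of these, values are given where the call held without each array, and for Ppp1r15b, Mat1a, Gcsh, Sepsecs and Edem1 with the scaling that ended it. Aimp1, which did not pass, was added as the other scaffold protein of the complex. Alternatives changed 1 choice at a time. They covered the probe sets (a gene's mean, each alone, none marked for cross-hybridisation), the 40% dimmest genes, the scaling (quantile, median, cyclic loess, hybridisation controls), the fit (trend and robust eBayes, weights per array, a block by replicate number) and each array left out.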

Additional observations from a re-analysis of the deposited data

How the results depend on the processing

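Of the 23 member calls, 16 were made in the same direction under all 16 alternatives that measured the gene, single probe sets apart, and 20 under the 15 other than scaling to the hybridisation controls. That scaling moves each array by 1 constant, so the difference of every gene shifts by the same amount. It gave 7010 genes higher and 651 lower. Medians under the scaling were 0.73 for the stress regulators, 0.45 for the serine, one-carbon and amino acid genes and 0.67 for the synthetases. The last 2 of these groups had 1 and 0 lower members under it. Under it 25 members were higher and 2 lower, 19 of the 23 calls were kept, and Aars (0.19), Cars (0.034), Tars (0.066), Eprs (0.29), Hars (0.28) and Yars (0.36) changed sign. The median of the serine, one-carbon and amino acid genes was 0.0041 without probe sets marked for cross-hybridisation and 0.00042 with cyclic loess, and 0.04 to 0.14 with 1 array left out, that of the synthetases 0.23 with quantile normalization again, 0.26 with median centring and 0.23 with cyclic loess, and that of the stress regulators 0.13 without the 40% dimmest genes, which leaves out Chac1, and 0.30 to 0.47 with 1 array left out. Without the dimmest genes 1660 genes were lower. The cause of these shifts was not tested. Replicate numbers did not pair the arrays: deviations from the group means correlated at -0.10, -0.02 and 0.06 for equal numbers, and 1 of 6 arrays correlated best with its own number. With the replicate block, 2111 genes were higher and 2168 lower, and the same 23 member calls were made. Readings near the bottom of the scale, such as Chac1, have unknown signal over background.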
